A study of Mus musculus with 8 samples.

Results

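The genes described here mark the 3 main non-microglial cell classes of the brain: neurons (10 genes), astrocytes (9) and the oligodendrocyte lineage (10). They were looked for in an ATAC-seq peak table of CD11b+ microglia, in which every peak carries the name of 1 gene. A peak belonged to a marker when that name equalled the marker, and its tags (aligned reads counted in the peak) were summed per gene and per class in each library. Of the 29 markers, 21 had at least 1 listed peak, 75 peaks in all, out of 16095 genes and 67822 peaks in the table.

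ATAC-seq inserts sequencing adapters into DNA that is not covered by nucleosomes, so a peak marks open chromatin such as an active promoter or enhancer. Each brain cell class keeps its own genes open: neurons those of synaptic transmission, astrocytes those of gap junctions, water channels and glial filaments, and oligodendrocytes those of myelin. Column isolation with an antibody against CD11b, an integrin of myeloid cells, enriches microglia, and chromatin from cells that come along is sequenced with theirs.

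Forebrain microglia of 2 genotypes were compared. The wild type had a C57BL/6N genetic background, and the knockout lacked Cias1, was named Nlrp3-/- and came from Millennium Pharmaceuticals. NLRP3 is the sensor of an inflammasome, a protein complex that activates caspase-1, and Cias1 is an older name of its gene. Each genotype had 4 libraries, no treatment is given, and myelin was removed from the dissociated tissue before the CD11b isolation in both. The age of the mice is not given in the sources used here, nor is it said whether the 4 libraries came from separate animals, so the tests below measure the spread between libraries, which may be technical. In such bulk libraries, fewer cells of a class and less open chromatin per cell cannot be told apart.

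The Nlrp3 locus matched the labels. Of its 2 promoter peaks, on chromosome 11, the upstream one held 0, 0, 0 and 1 tags in knockout replicates 1 to 4 and 75, 58, 58 and 80 in wild-type replicates 1 to 4. The other held 0, 0, 1 and 1 against 68, 56, 54 and 69. Libraries held 709738 to 3252424 tags in listed peaks. The share of all tags that lay in listed peaks, a common measure of signal over background, ran from 4.96% to 26.2%. It was 6.68%, 4.96%, 20.9% and 26.2% in knockout replicates 1 to 4 and 17.5%, 9.79%, 12.8% and 14.4% in wild-type replicates 1 to 4. Knockout replicates 1 and 2 were thus the lowest and knockout replicates 3 and 4 the highest. The microglial label was checked at genes of homeostatic microglia: 26 of 26 had a peak, and 25 had one annotated as a promoter. Of 13 border macrophage and monocyte genes, 12 had a peak and 4 a promoter-annotated one. Having a peak thus does not by itself set microglia apart from those cells.

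Promoter sequences are shown for markers with and without a listed peak in the window before their start. The windows below are the 250 bases before the start, 5′ to 3′ on the gene's strand, from RefSeq with build GRCm38.p6. Capitals mark the GC box, GGGCGG or its reverse complement CCGCCC, a string common in CpG-rich promoters that are open in many cell types. Tubb3 (chr8:123411303-123411552, plus strand), Id4 (chr13:48260866-48261115, plus) and Aldh1l1 (chr6:90550543-90550792, plus) are the members whose window a listed peak overlapped, over 184, 151 and 167 bases. The peak of Id4 ended 100 bases before its start, while those of Tubb3 and Aldh1l1 reached past theirs. Olig2 (chr16:91225300-91225549, plus) and Gfap (chr11:102897201-102897450, minus) had no peak over the window. Cx3cr1 (chr9:120068297-120068546, minus), the microglial fractalkine receptor, is shown for comparison, with a peak over 133 bases.
Tubb3: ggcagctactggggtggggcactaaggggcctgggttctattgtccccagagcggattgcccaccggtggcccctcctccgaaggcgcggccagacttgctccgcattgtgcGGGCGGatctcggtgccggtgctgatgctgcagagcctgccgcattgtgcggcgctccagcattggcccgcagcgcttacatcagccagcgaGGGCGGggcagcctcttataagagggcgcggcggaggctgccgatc
Id4: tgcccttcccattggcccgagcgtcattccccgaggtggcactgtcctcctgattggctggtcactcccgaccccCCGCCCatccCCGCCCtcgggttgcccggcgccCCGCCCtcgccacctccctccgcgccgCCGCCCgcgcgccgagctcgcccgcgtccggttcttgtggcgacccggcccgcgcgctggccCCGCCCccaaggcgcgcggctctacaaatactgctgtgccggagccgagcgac
Aldh1l1: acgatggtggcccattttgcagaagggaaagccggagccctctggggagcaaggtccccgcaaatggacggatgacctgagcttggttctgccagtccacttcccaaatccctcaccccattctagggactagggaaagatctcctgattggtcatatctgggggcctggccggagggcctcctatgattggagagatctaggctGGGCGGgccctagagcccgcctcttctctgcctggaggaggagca
Olig2: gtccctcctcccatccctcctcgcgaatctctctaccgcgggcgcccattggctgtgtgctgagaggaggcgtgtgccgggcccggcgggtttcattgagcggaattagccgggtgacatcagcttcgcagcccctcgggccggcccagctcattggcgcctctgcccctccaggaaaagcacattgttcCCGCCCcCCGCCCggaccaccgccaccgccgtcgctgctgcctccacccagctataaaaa
Gfap: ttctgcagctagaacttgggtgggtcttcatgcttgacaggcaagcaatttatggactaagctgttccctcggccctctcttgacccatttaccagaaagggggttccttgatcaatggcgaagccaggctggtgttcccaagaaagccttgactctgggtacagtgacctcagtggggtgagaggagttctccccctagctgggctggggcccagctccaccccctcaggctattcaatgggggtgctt
Cx3cr1: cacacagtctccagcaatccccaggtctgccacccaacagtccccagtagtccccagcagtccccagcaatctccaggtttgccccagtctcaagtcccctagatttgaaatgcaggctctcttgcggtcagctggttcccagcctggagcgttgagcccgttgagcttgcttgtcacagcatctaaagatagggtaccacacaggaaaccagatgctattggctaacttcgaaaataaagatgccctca

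The window of Id4 held 5 GC boxes and 35 CpG dinucleotides, that of Tubb3 2 and 21, and that of Aldh1l1 1 and 7. A peak in the window and CpG richness did not go together in every case. The window of Olig2, with no peak, held 2 GC boxes and 22 CpG, and that of Cx3cr1, with a peak, held no GC box and 4 CpG. RefSeq windows were matched for 21 of the 29 members; Aqp4, Camk2a, Mbp, Olig1, Snap25, Sox10, Sox9 and Stmn2 have none in the table used. A listed peak overlapped the window of 3 of the 21, against 18 of 19 homeostatic microglial genes with a window. The GC box was in a window of 11 of the 21 members and of 10 of the 19 microglial genes, and of 35.4% of all 27025 genes in the table. GAGGAA, the core string of the motif bound by the myeloid factor PU.1, was in a window of 6 members, of 12 microglial genes and of 25.9% of all. The E-box CAGCTG, a string bound by neurogenic bHLH factors, was in a window of 1 member (Syt1), of 5 microglial genes and of 14.7% of all. All 3 strings were searched on both strands, and none contains another.

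The peaks of the markers lay mostly away from their start sites. A promoter-annotated peak was present in 7 markers, Tubb3 among neurons, Id4 and Aldh1l1 among astrocytes, and Mbp (at the start of its long transcript), Olig1, Pdgfra and Cnp in the oligodendrocyte lineage. That is 7 of 21 with a peak, against 66.5% of all genes with a peak. Counted by peak, 9.33% of the markers' peaks were promoter-annotated, against 9.30% in homeostatic microglial genes and 19.5% over all genes. The median number of peaks per gene with a peak was 3 in the markers, 11 in the microglial genes and 3 over all genes. Most of these promoters were weak. Ranked by tags per kb among all promoter-annotated peaks, Pdgfra stood at percentile 2.11, Mbp at 2.21, Olig1 at 6.84, Tubb3 at 9.01 and Aldh1l1 at 30.3, while Cnp stood at 58.9 and Id4 at 61.4. Over the 75 peaks the median distance from the start was 14.0 kb, against 9.57 kb over all peaks, and 44 peaks lay beyond 10 kb. Within 1 kb lay 11, the 7 promoter peaks among them. A peak in a 5′ UTR of Camk2a (0.226 kb) and one in the first intron of Pdgfra (0.211 kb) stood at percentiles 76.7 and 77.4 of all listed peaks. Both distances are from a start inside the RefSeq gene body. For Camk2a it is the start of a shorter transcript, and none of the peaks named for the gene lay upstream of it. The peak named for Syt1, 286 kb away, was the farthest. For 7 markers (Syt1, Slc17a7, Snap25, Ntsr2, Gjb6, Gja1 and Aqp4) no peak lay in the gene or within 1 kb of it. Another gene hosted 14 peaks by annotation, of which 2, of Cnp, also lay within the marker itself. A peak's gene name here is the nearest start site, so these peaks are assigned to the markers by distance alone.

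**Figure D1:**
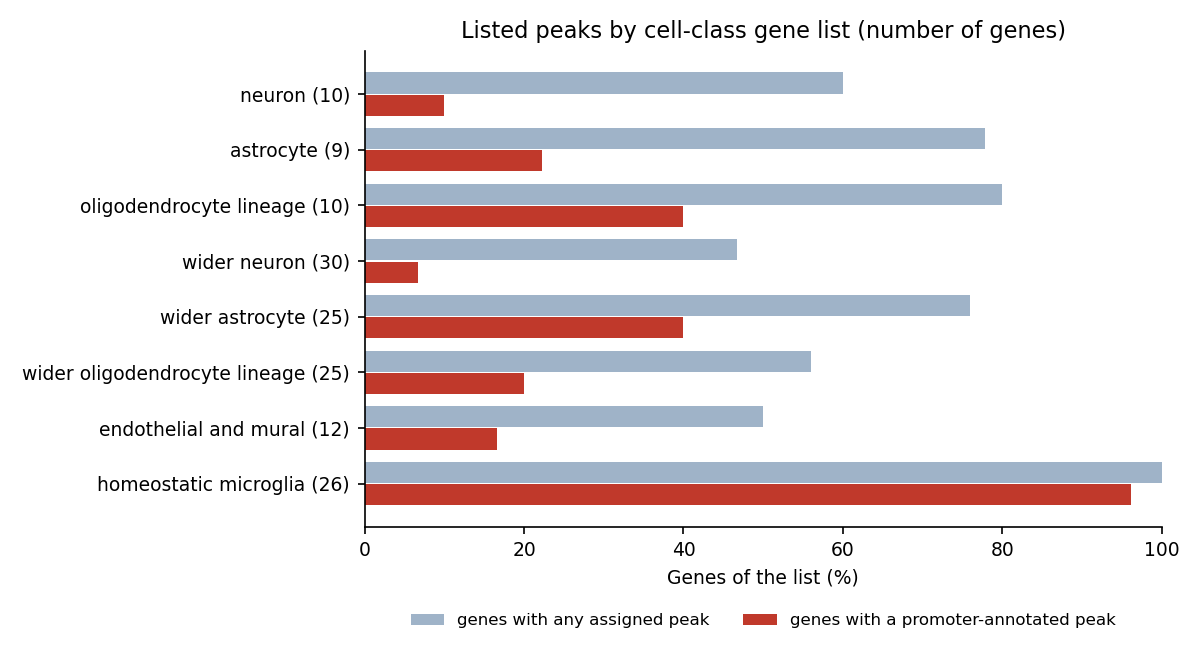
Percentage of genes with any assigned peak (grey bars) and with a promoter-annotated peak (red bars) in each cell-class list, with the number of genes in brackets. The 3 marker classes have promoter peaks in 10.0%, 22.2% and 40.0% of their genes, and the 26 homeostatic microglial genes in 96.2%.

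**Figure D2:**
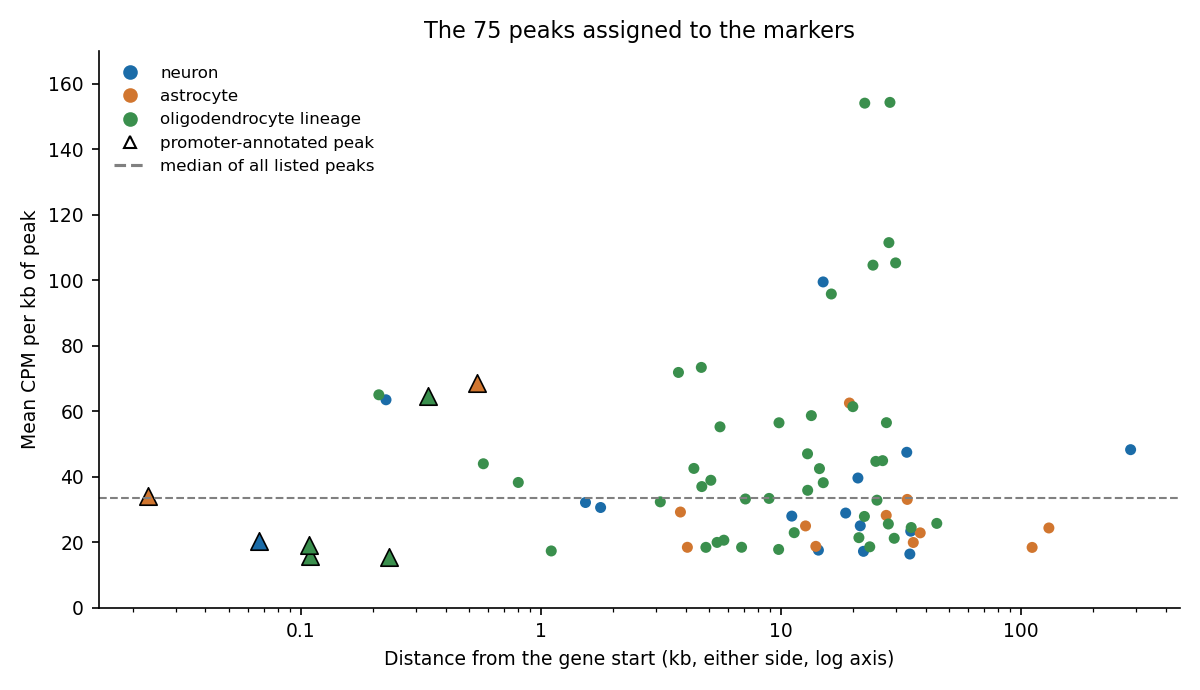
Each point is 1 of the 75 peaks of the markers, by distance from the gene start (x axis, kb, log scale) and mean CPM per kb of peak (y axis), where CPM is tags per 1000000 tags in listed peaks. Triangles are promoter-annotated peaks, which lie below 70 on the y axis, and the points above 90 are intron peaks of Mbp and 1 of Camk2a.

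No listed peak was named for 8 markers. They are Gad1 and Gad2, the enzymes that make GABA, Stmn2, a tubulin-binding protein of growing axons, Nrgn, a postsynaptic calmodulin-binding protein, Sox9, a factor of glial progenitors and astrocytes, Aldoc, a glycolytic enzyme of astrocytes, and Olig2 and Sox10, factors that specify the oligodendrocyte lineage. No listed peak lay within the body of any of them, and the nearest one was 313.973 kb from Sox9, 57.503 kb from Gad1, 40.872 kb from Olig2, 32.336 kb from Stmn2, 28.034 kb from Gad2, 14.098 kb from Nrgn, 6.02 kb from Sox10 and 0.439 kb from Aldoc. The peak near Aldoc is the promoter of Pigs and the one nearest Olig2 is the promoter of Olig1. Tags were counted only in listed peaks, so the level at these 8 genes was not measured.

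Neuronal markers had 15 peaks in 6 genes and 104 to 442 tags per library in all. Levels are given in CPM, which is here tags per 1000000 tags in the listed peaks of the library. Syt1, the calcium sensor of synaptic vesicle release, had 12.7, 12.7, 19.0 and 15.4 in knockout replicates 1 to 4 and 12.1, 10.2, 8.18 and 10.7 in wild-type replicates 1 to 4. All 4 knockout values lay above all 4 wild-type values, at a single intergenic peak (chr10:109296831-109297091, mm10). The share of all genes whose groups do not overlap is not given here, so this separation is only described. In edgeR's quasi-likelihood test the difference was 0.62 on the log2 scale (SE 0.24, 95% interval 0.13 to 1.12). The unadjusted p in that test was 0.0157, and 5.96% of all genes tested had one under 0.05. The edgeR adjusted p was 0.671 over all genes.

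Snap25, the membrane partner of the vesicle fusion machinery, had 11.5, 22.5, 21.5 and 21.2 in the knockout and 25.6, 17.6, 23.4 and 19.6 in the wild type. Its 3 peaks lay 33.4 to 34.7 kb before the start, and knockout replicate 1 was the lowest of the 8. Slc17a7, the vesicular glutamate transporter of cortical excitatory neurons, had 15.0, 22.5, 14.3 and 12.6 against 14.0, 16.9, 13.6 and 8.92, in 2 adjoining intergenic peaks less than 2 kb before the start. The groups overlapped, and the library with the lowest share of tags in peaks, knockout replicate 2, was the highest.

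Camk2a, a kinase of the postsynaptic density, carried 40.6% of all neuronal marker tags (848 of 2088). It had 54.1, 59.2, 58.2 and 52.9 in the knockout and 63.2, 61.6, 51.8 and 58.9 in the wild type. The groups overlapped and the difference was -0.05 on the log2 scale (95% interval -0.30 to 0.19). One of its intron peaks, in intron 15 of 17, ranked at percentile 88.3 of all listed peaks by tags per kb, the highest of any neuronal marker peak. It lay 15 kb past a start inside the gene. Another peak, in the 5′ UTR of the shorter transcript from that start, ranked at 76.7. Tubb3, the tubulin of neurons, had 11.5, 18.3, 13.5 and 11.1 against 11.6, 13.5, 6.54 and 9.81. Its promoter peak alone (chr8:123411369-123411625), the only one of the class, held 3.46, 9.86, 6.32 and 4.30 against 5.79, 6.09, 2.73 and 3.57, and the groups overlapped. Rbfox3, the splicing factor stained as NeuN, had 3 peaks named for it, in its second intron, with group means of 23.9 ± 8.38 and 25.4 ± 3.83 (SD, n = 4 each). Its body held 9 listed peaks, of which 6 were named for other genes and are not in these means.

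Astrocyte markers had 13 peaks in 7 genes, of which 9 were intergenic, and 99 to 331 tags per library. Per kb of peak, Ntsr2 and Id4 were the most open, with mean levels of 62.5 and 49.2 CPM per kb, at percentiles 74.9 and 58.6 of all genes with a peak. Id4, an inhibitor of bHLH transcription factors, carried 26.3% of the class's tags (411 of 1562). It had 34.6, 31.0, 28.7 and 30.4 CPM in the knockout and 21.7, 20.3, 31.6 and 26.3 in the wild type, and wild-type replicate 3 lay within the knockout range. At its promoter peak alone (chr13:48260759-48261016), the strongest of the class, it had 19.6, 14.1, 18.1 and 21.2 against 17.4, 14.2, 18.0 and 19.2. The other peak, inside the noncoding gene A330033J07Rik, had 15.0, 16.9, 10.5 and 9.22 against 4.34, 6.09, 13.6 and 7.14. The groups overlapped at both peaks, and the promoter means lay closer together.

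Ntsr2, a neurotensin receptor, had 10.4, 21.1, 15.2 and 19.1 CPM against 15.9, 13.5, 9.27 and 12.04, at 1 intergenic peak (chr12:16634083-16634315) 19.3 kb before the start. Gfap, the intermediate filament protein of astrocytes, had 15.0, 14.1, 14.3 and 7.69 against 15.9, 14.9, 21.3 and 8.92. Both groups spanned a wide range, with replicate 4 the lowest in each. Aldh1l1, a folate enzyme, had 18.4, 33.8, 22.3 and 16.9 against 20.2, 27.8, 19.6 and 16.5, with the highest value of each group in replicate 2. The connexins Gjb6 and Gja1 had knockout and wild-type means of 22.1 ± 5.20 and 16.3 ± 6.63, and of 6.40 ± 2.08 and 6.00 ± 1.64 (SD, n = 4 each). Aqp4, the water channel of astrocyte endfeet, had 4 to 14 tags per library at 1 peak 111 kb from the start and was too low to test.

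Oligodendrocyte lineage markers had 47 of the 75 peaks and 458 to 2104 tags per library, and Mbp alone held 56.0% of them (5261 of 9397). Mbp encodes a major myelin protein, and longer transcripts from an upstream start, known as golli, are also made in immune cells. It had 342, 342, 388 and 378 CPM in the knockout and 337, 343, 320 and 348 in the wild type, so that knockout replicates 3 and 4 lay above all others while replicates 1 and 2 lay among the wild type. The difference was 0.14 on the log2 scale (SE 0.07, 95% interval -0.01 to 0.29). Of its 19 peaks, 7 lay in intron 3 of the long transcript, 16.2 to 28.4 kb before a downstream start, and held 56.0% of the gene's tags. Of these 7, 6 ranked above percentile 75 of all listed peaks by tags per kb, and the strongest reached 95.3. The promoter-annotated peak of the gene, at the upstream start, stood at percentile 4.99 on the same scale. The Mbp peak nearest a downstream start lay 4.65 kb past it.

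Among the other myelin genes, Mag, an adhesion protein of the inner myelin membrane, had 8.06, 9.86, 16.0 and 10.5 CPM in the knockout and 6.75, 8.13, 9.27 and 7.14 in the wild type, at 1 exonic peak (chr7:30909102-30909344). The groups overlapped, the difference was 0.62 on the log2 scale (SE 0.28, 95% interval 0.04 to 1.2), and edgeR's adjusted p was 0.797 (unadjusted p = 0.0365). Opalin, a membrane protein of myelin paranodes, had 79.5, 85.9, 103 and 98.4 against 84.4, 96.2, 89.4 and 88.3. Of its 10 peaks 7 lay in introns of the neighbouring protease gene Tll2 and 2 in Dntt, and 1 in Opalin itself. Cnp, a phosphodiesterase of myelin, had 85.2, 85.9, 85.6 and 74.7 against 94.5, 84.6, 80.2 and 59.3. Of its 5 peaks 2 lay in Ttc25 and 3 within Cnp, of which 2 were annotated to Dnajc7. Its promoter peak (chr11:100575119-100575437) had 18.4, 14.1, 25.3 and 19.7 against 27, 19.6, 19.6 and 21.4, with the groups overlapping. Mog, a surface glycoprotein of myelin, had means of 34.6 ± 8.10 and 34.8 ± 2.70 (SD, n = 4 each).

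Of the progenitor genes of the lineage, Cspg4 had 44.8 CPM per kb of peak, Pdgfra 34.8 and Olig1 23.2, at percentiles 51.5, 32.8 and 11.2 of all genes with a peak. In summed CPM, Pdgfra, the growth factor receptor of oligodendrocyte precursors, had means of 25.5 ± 6.16 in the knockout and 23.4 ± 1.56 in the wild type, and Olig1, a bHLH factor, 16.3 ± 5.40 and 16.1 ± 1.16 (SD, n = 4 each). Cspg4, the NG2 proteoglycan of precursors and pericytes, had 18.4, 23.95, 23.2 and 19.1 against 29.4, 30.5, 16.4 and 20.5, with wild-type values on both sides of the knockout range. In Olig1 and Pdgfra the wild-type SD was under 2, and the wider knockout SD came with a high value in knockout replicate 2.

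**Figure D3:**
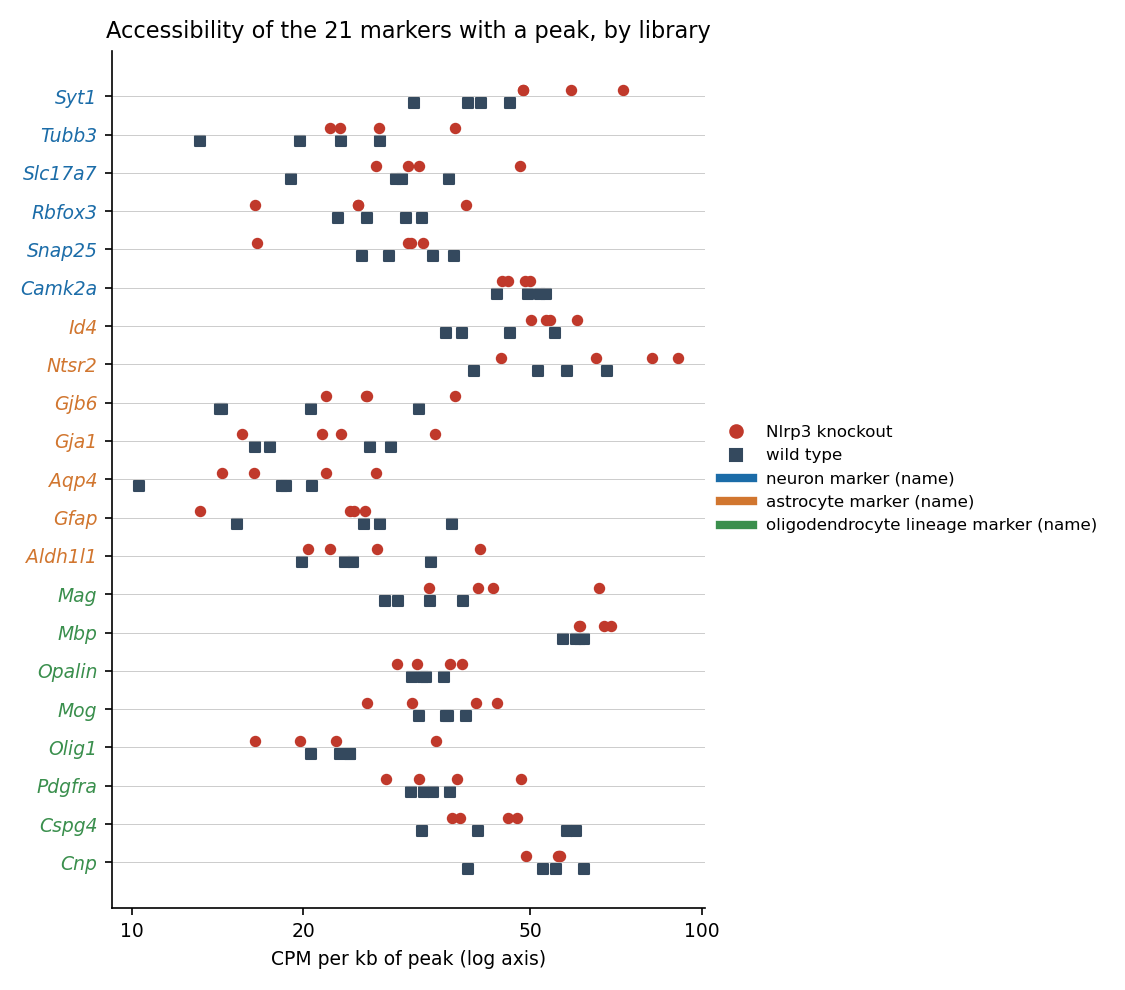
CPM per kb of peak (x axis, log scale) for the 21 markers with a peak, 1 symbol per library, knockout as red circles and wild type as dark squares. Syt1 is the marker whose 4 knockout values all lie above its 4 wild-type values (edgeR adjusted p = 0.671). The share of all genes with such a separation is not given. Ntsr2 and Mbp have the highest means, 62.5 and 62.4.

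Ordered by level per kb, the 21 markers ran from 18.4 CPM per kb in Aqp4 to 62.5 in Ntsr2. Of all peaks of the markers, 15 of 75 ranked above percentile 75 by tags per kb, 11 of them in the oligodendrocyte lineage, and 20 ranked below percentile 25. The median level per kb of gene was 30.4 for neuronal, 24.03 for astrocyte and 37.2 for oligodendrocyte lineage markers, against 44.0 over all genes with a peak and 55.1 for homeostatic microglial genes.

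None of the 20 markers that could be tested differed between knockout and wild type at an adjusted p under 0.05 in edgeR, where 0.213% of all 15476 genes tested did (33 genes). At an unadjusted p under 0.05 there were 2, Syt1 and Mag, and the background was 5.96%. DESeq2 called none of the 20 either. The median difference was 0.08 on the log2 scale in neuronal markers (3 of 6 above 0), 0.20 in astrocyte markers (5 of 6) and 0.09 in oligodendrocyte lineage markers (6 of 8). It was 0.07 in homeostatic microglial genes (19 of 26) and 0.00 over all genes. The single peaks gave the same answer: of 65 tested, none was called by edgeR (0.17% of 58135 peaks overall) or by DESeq2, and 4 had an unadjusted p under 0.05, 2 intron peaks of Mbp and those of Mag and Syt1 (4.83% overall). The intervals bound what could have been missed. The widest, that of Gja1 at -0.62 to 0.79, leaves room for differences of either sign, and those of Mbp and Opalin end at 0.29 and 0.31.

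**Figure D4:**
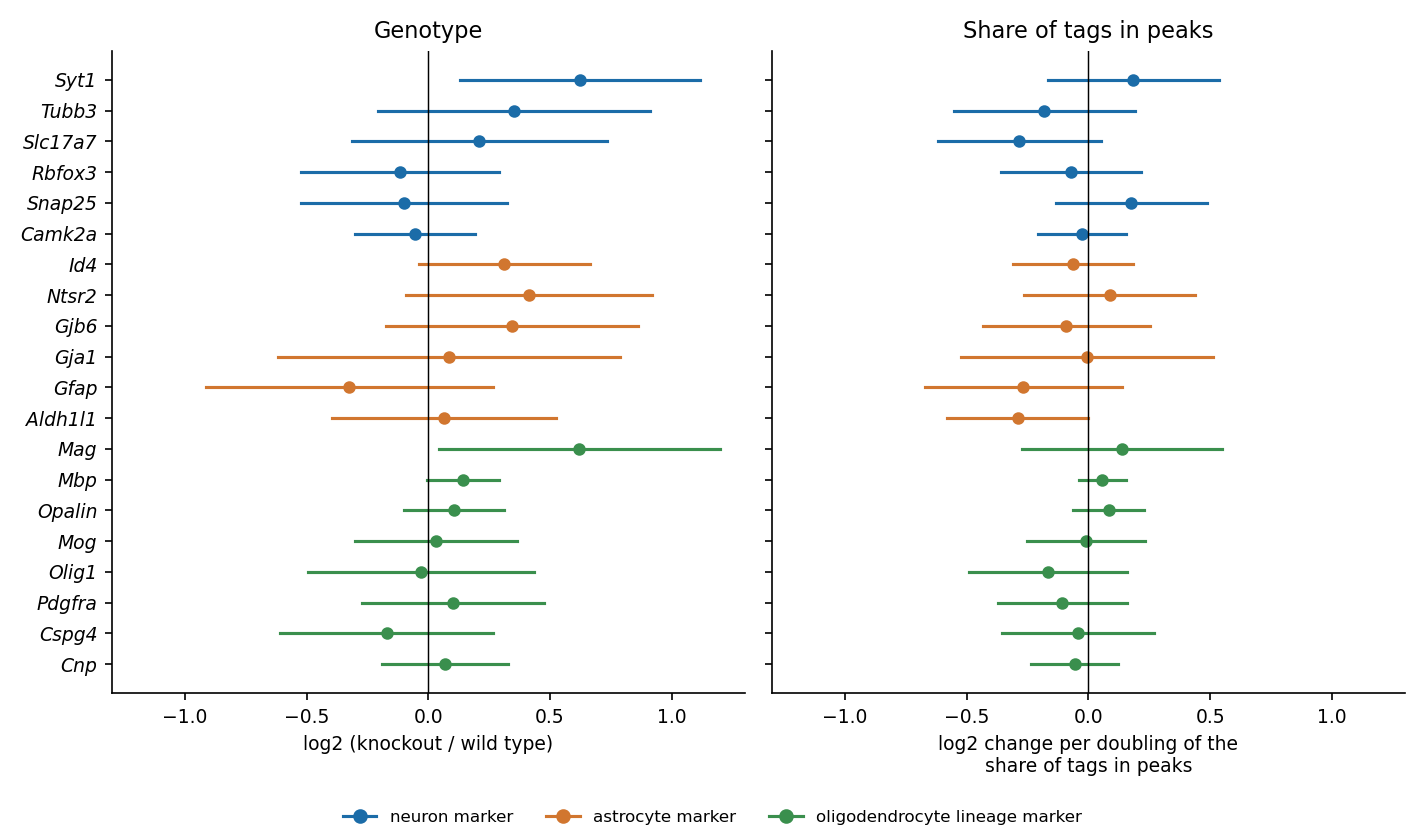
Estimates (points) and 95% intervals (lines) from edgeR for the 20 tested markers, with neuron markers in blue, astrocyte in orange and oligodendrocyte lineage in green. The left panel gives the log2 difference between knockout and wild type and the right panel the log2 change per doubling of the share of tags in peaks. The intervals of Syt1 and Mag on the left and of Aldh1l1 on the right do not include 0, before any adjustment for the number of genes.

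Summed by class, the genotypes overlapped in all 3. Neuronal markers had 119.8, 170.5, 149 and 136 CPM in knockout replicates 1 to 4 and 149.9, 141, 133 and 136 in the wild type, means of 144 ± 21.5 and 139.9 ± 7.46 (SD, n = 4 each). The knockout held both the lowest library (replicate 1) and the highest (replicate 2). Astrocyte markers had 114, 141, 111 and 102 against 112, 95.5, 106 and 89.6, means of 117 ± 16.8 and 101 ± 10.0 (SD, n = 4 each). The log2 ratio of these means was 0.22, and 0.11 without knockout replicate 2, the highest library. Oligodendrocyte lineage markers had 589.7, 645, 701 and 647 against 619, 639.9, 590.1 and 601, means of 646 ± 45.6 and 613 ± 21.9 (SD, n = 4 each). In all, the 29 markers summed to 823 to 962 CPM, and the 26 homeostatic microglial genes to 5227 to 5898 CPM.

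The question behind the share of tags in peaks is whether libraries with weaker signal held more chromatin of other brain cells. Per 1000000 of all tags, class levels followed the share almost in proportion. On this scale all listed peaks together have a slope of 1 by construction. Only a departure from 1, which is the slope in CPM, could bear on the question. Whether the peaks named for the markers are open in neurons or glia, or in microglia, was not tested. On log2 scales against the log2 share, the slope over the 8 libraries was 0.97 ± 0.07 (SE) for neuronal, 0.87 ± 0.08 for astrocyte and 1.03 ± 0.04 for oligodendrocyte lineage markers, against 1.04 ± 0.02 for homeostatic microglial genes. A slope of 1 means that the markers rose and fell with all listed peaks together. In CPM the slopes were -0.03 ± 0.07, -0.13 ± 0.08 and 0.03 ± 0.04, and 0.04 ± 0.02 for the microglial genes. Other lists had slopes in CPM of both signs: -0.15 ± 0.04 for border macrophage and monocyte genes, -0.09 ± 0.04 for olfactory receptors, -0.07 ± 0.06 for granulocyte and lymphocyte genes, -0.04 ± 0.03 for endothelial and mural genes, and -0.06 ± 0.04, 0.07 ± 0.04 and -0.04 ± 0.05 for wider neuronal, astrocyte and oligodendrocyte lineage lists. The border macrophage and monocyte sum includes Ly6c2, whose edgeR estimate was -1.07 on the log2 scale per doubling of the share. Over the 11 tested genes of that list the median estimate was 0.03, with 7 above 0. For the 3 marker classes, Pearson r in CPM was -0.14, -0.54 and 0.33, Spearman rho 0.05, -0.43 and 0.48, and Pearson r without the 2 libraries farthest from the median share (knockout replicates 2 and 4) was 0.86, 0.0048 and 0.59. These slopes and correlations describe 8 libraries and carry no test, since the markers were chosen with earlier results of these data known.

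The astrocyte slope rested on 1 library. Without knockout replicate 2, which had the lowest share of tags in peaks and the highest astrocyte level, it was -0.01, and the neuronal slope was 0.11. Without both low-share knockout libraries the slopes were 0.03 (neuron), 0.11 (astrocyte) and 0.08 (oligodendrocyte lineage). The 6 libraries left span 9.79% to 26.2%, so these last slopes say nothing about a lower share.

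**Figure D5:**
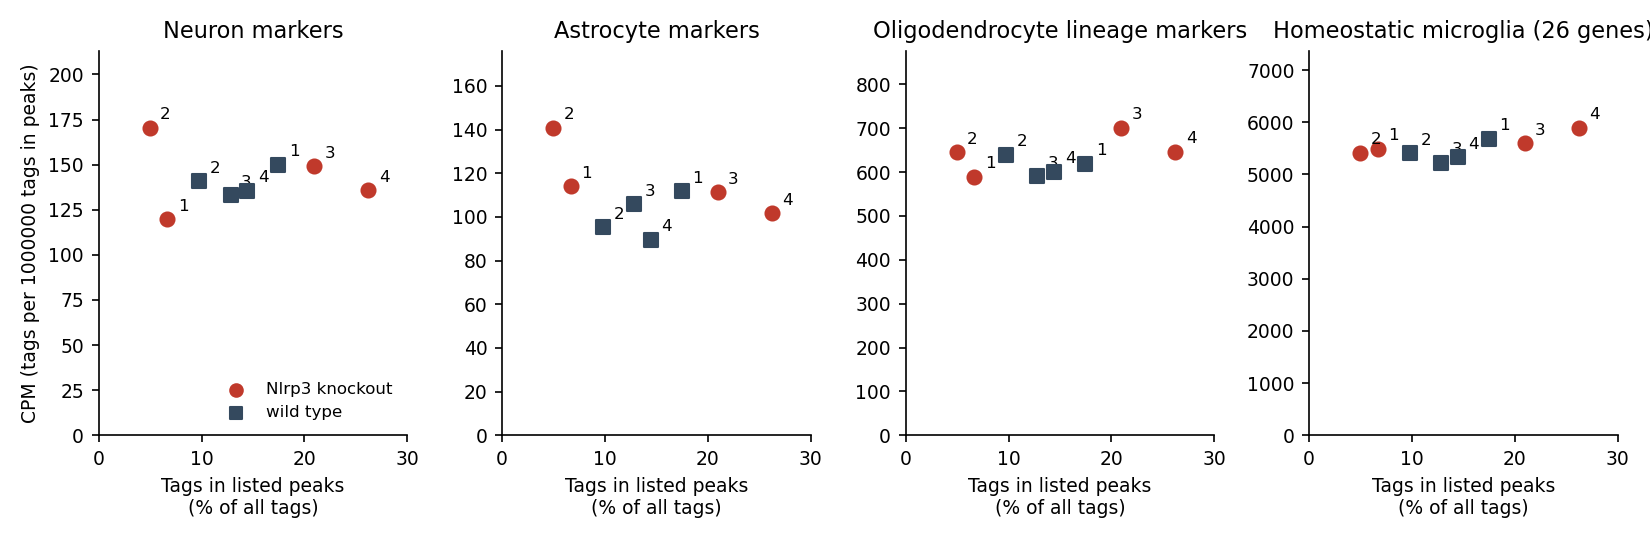
Summed tags of each marker class, and of 26 homeostatic microglial genes, in CPM (y axis, from 0) against the percentage of tags in listed peaks (x axis), 1 symbol per library with its replicate number. Knockout libraries are red circles and wild-type libraries dark squares. Knockout replicate 2, at 4.96%, has the highest neuronal and astrocyte level, while knockout replicate 1, at 6.68%, has the lowest neuronal level.

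Gene by gene, none of the 20 markers changed with the share of tags in peaks in edgeR with genotype in the model, at an adjusted p under 0.05, where 0.846% of all genes did (131, of which 129 fell as the share rose). DESeq2 also called none. At an unadjusted p under 0.05 there was 1, Aldh1l1, with -0.29 per doubling of the share on the log2 scale (SE 0.14, 95% interval -0.58 to -0.0006), an unadjusted p of 0.0495 and an edgeR adjusted p of 0.548, and the background was 9.09%. The medians were -0.05 in neuronal (2 of 6 above 0), -0.08 in astrocyte (1 of 6) and -0.03 in oligodendrocyte lineage markers (3 of 8), against 0.00 over all genes and 0.03 in microglial genes (17 of 26). These directions did not hold under every alternative. Over all tested markers the median of -0.05 (6 of 20 above 0) became 0.06 without knockout replicate 2 (13 of 21), 0.0015 without knockout replicate 4 (11 of 21), 0.07 with the replicate number as a block (14 of 20) and 0.96 when scaled to all tags (20 of 20). Of 65 peaks tested, edgeR and DESeq2 called none (1.44% of all peaks in edgeR), and 3 had an unadjusted p under 0.05, 2 of Mbp and 1 of Aldh1l1 (10.6% overall).

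Wider lists of the same cell classes were read beside the markers. Of 30 further neuronal genes 14 had a peak, of 25 astrocyte genes 19 and of 25 oligodendrocyte lineage genes 14, with 2, 10 and 5 of them carrying a promoter-annotated peak. Those with the most tags were Celf4, an RNA-binding protein, Glul, glutamine synthetase, and Enpp6, a choline phosphodiesterase of new oligodendrocytes. In the genotype test edgeR called 1 of the 18 tested astrocyte genes (4 at an unadjusted p under 0.05) and none of the 11 neuronal or 13 oligodendrocyte lineage genes (0 and 0). Of all genes tested, 0.213% were called and 5.96% had an unadjusted p under 0.05 in edgeR. The called astrocyte gene was Ppp1r3c, a glycogen-targeting subunit of protein phosphatase 1. It had 11.5, 9.86, 8.43 and 11.1 CPM in the knockout and 17.4, 25.1, 20.2 and 25.9 in the wild type, without overlap, and fell by 1.09 on the log2 scale (SE 0.23, edgeR adjusted p = 0.0342). DESeq2 did not call it (adjusted p = 0.112), and leaving out 1 library at a time kept the call in 1 of 8 edgeR fits (adjusted p 0.021 to 0.266, and 0.0204 to 1.00 over all alternatives). Against the share of tags in peaks edgeR and DESeq2 called none of these lists' genes. In edgeR 5 of 18 astrocyte and 1 of 11 neuronal genes had an unadjusted p under 0.05, against 9.09% of all genes tested.

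Of the lists for other cells that a CD11b isolation can hold, 1 gene moved with the share. Ly6c2, a monocyte surface protein with near-identical neighbours whose reads the counting could split, had 181, 249, 49.7 and 51.3 CPM in knockout replicates 1 to 4 and 75.7, 204, 138 and 127 in the wild type. It was highest where the share of tags in peaks was lowest, with -1.07 per doubling of the share (SE 0.07, edgeR adjusted p = 1.06e-12, called also by DESeq2 and without any 1 library). Scaled to all tags its estimate was -0.06 (edgeR adjusted p = 0.431). The other 10 tested genes of that border macrophage and monocyte list were not called, nor were the 2 tested granulocyte and lymphocyte genes or the 6 tested endothelial and mural genes, with 0, 0 and 1 of them at an unadjusted p under 0.05 in edgeR and none called by DESeq2. For genotype edgeR and DESeq2 called no gene of these other lists, where 1, 0 and 1 had an unadjusted p under 0.05 in edgeR. Over all genes tested, an unadjusted p under 0.05 in edgeR was reached by 9.09% for the share and 5.96% for genotype. Summed, the granulocyte and lymphocyte genes (3 genes with 5 peaks) had 68.0, 62.0, 57.7 and 61.5 CPM in the knockout and 51.6, 54.2, 55.6 and 56.2 in the wild type, means of 62.3 ± 4.22 and 54.4 ± 2.06 (SD, n = 4 each). This was the one list sum whose genotypes did not overlap, and it rested on 44 to 200 tags per library. Per 1000000 of all tags the genotypes overlapped. Of 47 tested olfactory receptor genes, whose main site of expression is the nose, 2 were called lower as the share rose. Of all genes tested, 0.846% were called for the share in edgeR. What part the lower share of tags in peaks has in these values was not tested.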

How the data were processed

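ATAC-seq tags of 8 libraries, 4 knockout and 4 wild-type, were analysed. The deposited table holds raw counts of tags per peak, made by the authors with HOMER's annotatePeaks.pl on mm10 over a merged list of reproducible peaks of both genotypes, counting at most 3 tags per position, per the file headers. Fragments were selected at 165 to 250 bp and read from 1 end for 51 cycles, per the labels' protocols. Bowtie2 and DESeq2 are also named in the submitters' processing notes, without versions.

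Counts were summed per named gene and class. edgeR 4.0.16 (R 4.3.3; quasi-likelihood F test, TMM, filterByExpr with a minimum count of 10, Benjamini-Hochberg over all genes or all peaks) tested genotype, and the log2 share of tags in listed peaks with genotype in the model; an estimate for the share is the log2 change per doubling. Intervals are 95%. Standard errors come from these fits, and the scripts were tested on simulated data. Depth per library was 709738 to 3252424 tags in peaks, of 11325865 to 15521580 tags in all. Class sums and slopes carry no test. Alternatives were DESeq2 1.42.0, other scalings, filters, models and peak sets, and leaving out libraries; restricting to peaks in or within 1 kb of the gene was chosen after seeing the data. Values in every library are given for markers passing a test, the 3 of each class highest per kb, the 2 of each class with the smallest p in each gene test and the top promoter peak of each class; others are summarised. Of the wider lists, called genes and the gene with the most tags are named. The markers and lists were chosen with earlier results of these data known. Over genes, the deviations of same-numbered libraries correlated at 0.01, 0.09, -0.02 and 0.18, against -0.13 to 0.09 for different-numbered ones. The labels do not say that the numbers pair the libraries, so they were used as a block only in an alternative. Promoter windows are RefSeq's.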

Additional observations from a re-analysis of the deposited data

Results flagged for a closer look

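Of 48 groups of 4 libraries (1 per marker level or class sum and genotype), 3 held 1 library far from the other 3 by Dixon's criterion, which chance alone meets in about 1 in 20 groups. For Snap25 it was knockout replicate 1, with 11.5 CPM where the remaining knockout libraries had 21.2 to 22.5. For Gfap it was knockout replicate 4, with 7.69 CPM beside 14.1 to 15.0, and for Cnp the same library, with 74.7 CPM beside 85.2 to 85.9.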

How the results depend on the processing

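No marker gene or peak was called for genotype (0) under any alternative run, leave-one-out fits included (0 to 0). The same held for the share of tags in peaks, leave-one-out 0 to 0, except when libraries were scaled to all their tags. That called 20 of 20 genes and 63 peaks because the median share estimate over all genes becomes 1.01 by construction, and it turned the sign of Tubb3 (0.82), Slc17a7 (0.72), Camk2a (0.98), Id4 (0.94), Gfap (0.74), Aldh1l1 (0.72), Cspg4 (0.96) and Cnp (0.95). It also turned Camk2a's genotype difference to 0.016. Other signs of uncalled estimates turned as follows, and the cause was not tested. Without knockout replicates 1 and 2 the genotype difference of Aldh1l1 was -0.076, and the share estimates were 0.0062 (Camk2a), 0.081 (Id4), -0.71 (Mag), -0.015 (Mbp) and -0.22 (Opalin). With peaks in or within 1 kb of the gene only, Cnp was -0.14 for genotype and 0.10 for the share, and Id4 0.14 for the share.

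The replicate block, which pairs the libraries by number, called 0 markers and gave share estimates of 0.16 (Tubb3), 0.035 (Slc17a7), 0.068 (Camk2a), 0.024 (Aldh1l1), 0.34 (Cspg4) and 0.15 (Cnp).

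Class slopes per 1000000 of all tags were 0.97, 0.87, 1.03 and 1.00 (neuron, astrocyte, oligodendrocyte lineage, all 29), and log2 genotype ratios on that scale 0.22 (oligodendrocyte lineage) and 0.20 (all 29). From promoter peaks only, the neuronal ratio was 0.40 and the slopes -0.20, 0.061 and -0.034. The astrocyte slope was 0.0050 with peaks in or near the gene. Without knockout replicates 1 and 2 slopes were 0.11 (astrocyte), 0.083 (oligodendrocyte lineage) and 0.078 (all 29). Leaving out 1 library, ratios ranged from -0.05 to 0.12 (neuron), 0.11 to 0.28 (astrocyte), 0.03 to 0.12 (oligodendrocyte lineage) and 0.06 to 0.13 (all 29), and slopes from -0.096 to 0.11, -0.16 to -0.011, 0.0055 to 0.081 and -0.025 to 0.074. The neuronal ratio of -0.05 and the slopes of 0.11, -0.011, 0.081 and 0.074 came without knockout replicate 2. Of single genes, leaving out 1 library spanned 0 for genotype in Snap25 (-0.17 to 0.0093), Aldh1l1 (-0.084 to 0.24) and Cnp (-0.060 to 0.18), and for the share in Camk2a (-0.051 to 0.015), Ntsr2 (-0.057 to 0.41), Cspg4 (-0.11 to 0.031) and Cnp (-0.11 to 0.0015).

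Depth limits the low markers: knockout replicate 2 held 3 to 5 tags at Gja1 or Aqp4.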
